A study of Homo sapiens with 9 samples.

Results

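U-373MG cells exposed to the peptide NnK-1 were compared with untreated U-373MG cells over all expressed genes. The comparison used 6 of the 9 libraries of the series, 3 per group, chosen by their titles. U-373MG is an established human line of glioblastoma and astrocytoma origin. NnK-1 is a synthetic peptide of jellyfish origin with a ShK-like sequence, given at 200 nM for 48 h. The control cells received no peptide, and the sources used here give no time in culture for them. These controls also served as the reference for another jellyfish peptide, whose 3 libraries entered the fit below only to help estimate the spread between replicates. All cells were of 1 line, and the replicates are described as biological without a statement that each came from its own culture. The p-values therefore measure the spread between these libraries, which may be technical.

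ShK is a sea anemone toxin that plugs the pore of the voltage-gated potassium channel Kv1.3. Potassium channels set the membrane potential, and in lymphocytes and microglia Kv1.3 sustains the driving force for calcium entry, which acts through calcineurin and NFAT on cytokine genes. In glioma cells potassium and chloride channels are known for their part in cell volume, migration and proliferation. Some of the lists of genes below follow that chain from channels to calcium signalling, inflammatory genes, metabolism, growth and the cytoskeleton. Others lie outside it, among them the clock, phosphatase, tRNA splicing, small Cajal body RNA and spliceosomal RNA lists. Each of these named lists holds a gene that is among those of smallest p below. The lists were chosen with earlier results of these data known, so their choice was not independent of the values reported.

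The label of the line was first set against markers. Vimentin (VIM), an intermediate filament of glial and mesenchymal cells, lay between 3786 and 7192 CPM over the 6 libraries, and nestin (NES), its counterpart in neural progenitors, between 1231 and 1572 CPM. CPM here are a library's counts scaled by TMM to a common size in the usual unit of that name. GFAP, the intermediate filament that defines mature astrocytes, lay between 20.2 and 28.6 CPM, the calcium-binding S100B between 120 and 142 CPM, and the astrocyte enzyme ALDH1L1 had no read in any library of the series. Of the 25 listed markers of astrocytes and neural progenitors 17 were tested, with a median log2 fold change of -0.02. EPCAM of epithelia, CLDN5 of endothelium and SOX10 of oligodendrocytes had no read, and the leukocyte gene PTPRC had 1 read in all 9 libraries. Other genes of such marker lists were present. Over the 6 libraries the summed level was 511 to 601 CPM for 7 tested fibroblast and epithelial markers, 411 to 514 CPM for 6 oligodendrocyte markers, 594 to 821 CPM for 9 neuron markers and 4.05 to 9.56 CPM for 4 endothelial markers, with overlap between the groups in each. Of 15 microglial and immune markers 2 were tested, CD68 and CSF1R, with a summed level of 5.61 to 8.22 CPM in the controls and 3.08 to 4.97 CPM with NnK-1, and CX3CR1, TYROBP, CD3D, CD3E, MS4A1 and HLA-DRA had no read. The part of these marker genes in the results was not tested.

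The libraries held between 11203094 and 13491075 counts, and between 15305 and 15968 genes had a read in a library. Of 24462 gene symbols 13676 had enough counts to be tested. NnK-1 replicate 2, the library with the fewest counts, lay apart from the others. Its score was 51.1 on a first principal component that took 29.3% of the variance, where the other libraries lay between -20.9 and 5.40. It was the highest or the lowest of the 6 libraries for 47.5% of the genes at 5 CPM or more, against 26.0% to 36.5% for each other library. Control replicate 2 stood apart in another way, through high interferon-stimulated genes described below.

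No gene passed the test between NnK-1 and control cells. By edgeR's quasi-likelihood test with Benjamini-Hochberg adjustment over the 13676 genes, 0 were higher and 0 lower, and the smallest adjusted p was 0.499. Without adjustment 1001 genes (7.32%) had a p under 0.05, 514 higher (3.76%) and 487 lower (3.56%). All 3 NnK-1 libraries lay above all 3 control libraries for 830 genes (6.07%) and below them for 929 genes (6.79%), 12.9% in all. These shares are the background for the counts given for each list below. DESeq2 passed 1 gene higher and 2 lower, edgeR's exact test passed 3 higher and 5 lower, and limma-voom passed 0. Without the filter on low counts the quasi-likelihood test passed 74 genes, 27 higher and 47 lower. Of these, 30 are named with a fold change in the text, 9 higher (AAGAB, COLGALT1, CRY1, EI24, GCOM1, HGH1, RTCB, SLC16A1-AS1 and SNHG19) and 21 lower, among them CD70, FLNA, IFI44L, MALAT1, MX1, RNU4ATAC, RPS3, SCARNA22 and TGFB1. CD70 and IFI44L passed there although their control libraries lay far apart, so a small p in that fit does not mean close replicates. Every gene named below with a value is therefore described as not passing, except where another tool is named.

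The intervals of the fold changes give the size of difference that these libraries leave room for. For 10374 of the 13676 genes (75.9%) the 95% interval of the log2 fold change lay wholly between -1 and 1, that is, within a 2-fold difference either way. Among the 10620 genes at 5 CPM or more this held for 10109 (95.2%), and for 7098 of them (66.8%) the interval lay within 1.5-fold. The median interval of these genes reached 0.33 to each side on the log2 scale. The intervals are those of single genes, without adjustment for their number.

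**Figure D1:**
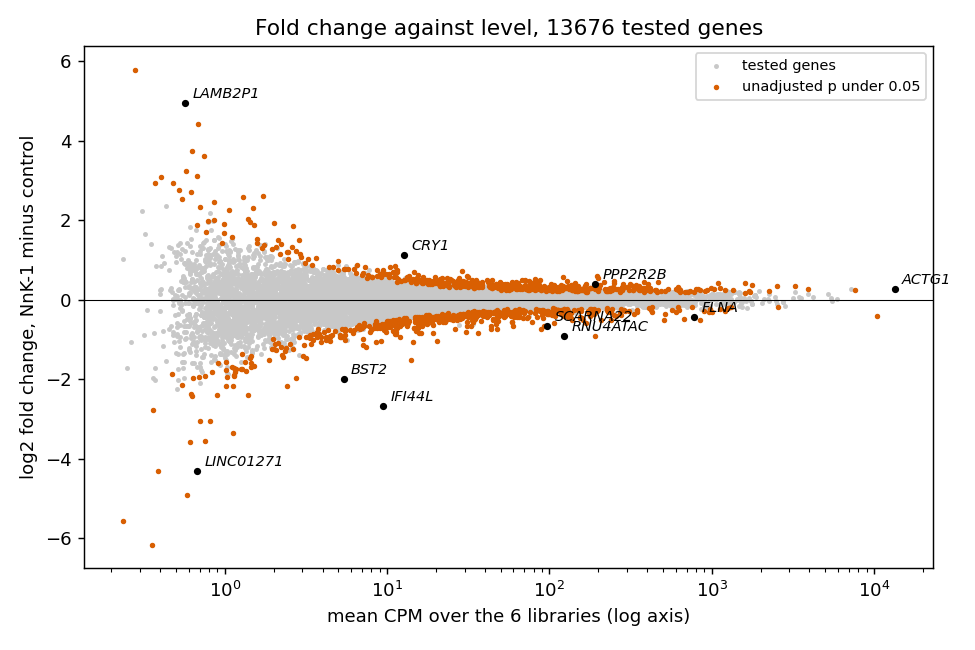
Log2 fold change (NnK-1 minus control) of each of the 13676 tested genes against its mean CPM over the 6 libraries on a log axis, with the 1001 genes at unadjusted p under 0.05 in orange. Wide folds lie at low levels, and among abundant genes the cloud is narrow around 0.

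The genes below the threshold of 0.05 on the unadjusted p were mostly small in size. Restricted to genes at 5 CPM or more without overlap between the groups, they numbered 629, 324 higher and 305 lower, and 100 of these differed by at least 1.5-fold (26 higher, 74 lower). A 2-fold difference was reached by 1 higher gene, CRY1, and by 7 lower genes. Single libraries carried a large share of these extremes. NnK-1 replicate 2 was the highest library for 217 of the 324 higher genes (67.0%) and the lowest for 159 of the 305 lower genes (52.1%), while control replicate 1 was the highest for 159 of the lower genes (52.1%) and the lowest for 157 of the higher genes (48.5%). Of the 1001 genes, 587 stayed at p under 0.05 without control replicate 2, 466 without NnK-1 replicate 2 and 327 without both.

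Among the 12 higher genes with the smallest p, CRY1, a transcriptional repressor in the negative limb of the circadian clock, had the widest fold. It stood at 16.2, 18.9 and 16.8 CPM in NnK-1 replicates 1, 2 and 3 and at 6.33, 11.1 and 6.51 CPM in control replicates 1, 2 and 3, the order used for all values below. The log2 fold change was 1.11 (95% interval 0.60 to 1.63, unadjusted p = 0.000213), and it was 1.43 without control replicate 2 and 1.05 without NnK-1 replicate 2. CRY1 passed edgeR's exact test (adjusted p = 0.0340) but not DESeq2 (adjusted p = 0.0601). Of the 24 tested genes of the clock list, CRY1 included, 14 lay above 0, against 50.6% of all tested genes. The median was 0.04 (-0.01 without control replicate 3), and CRY1 was the 1 member at p under 0.05. The summed level of the list lay between 926 and 1014 CPM with NnK-1 and between 859 and 902 CPM in controls, without overlap. CRY2, the paralogue of CRY1, also lay above every control, at 5.68, 7.73 and 5.57 CPM with NnK-1 and 5.21, 5.34 and 1.70 CPM in controls, a log2 fold change of 0.63 with an interval of -0.14 to 1.41.

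PPP2R2B encodes a brain-enriched regulatory subunit of protein phosphatase 2A, a phosphatase whose regulatory subunits choose its substrates. It had the least spread of the leading genes, with 212, 225 and 217 CPM in NnK-1 cells and 165, 165 and 168 CPM in controls. The groups did not overlap, the log2 fold change was 0.39, and it passed DESeq2 (adjusted p = 0.0137) but not edgeR's exact test (adjusted p = 0.0745). Leaving out any 1 library kept it between 0.38 and 0.42. PPP2R5B, a regulatory subunit of the B56 family, lay at 3.15, 2.39 and 3.16 CPM with NnK-1 against 6.65, 6.67 and 4.59 CPM in controls, a log2 fold change of -1.03. Of the 29 tested genes of the phosphatase 2 were higher and 5 lower at p under 0.05, with a median of -0.06. Without control replicate 1 these counts were 3 and 1, and the median was -0.03 without control replicate 2 or without NnK-1 replicate 2. Over all tested genes 3.76% were higher and 3.56% lower at that threshold.

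RTCB, the ligase that joins tRNA exons and the spliced XBP1 messenger, stood at 99.1, 110 and 98.9 CPM with NnK-1 and 64.5, 76.5 and 77.8 CPM in controls (log2 fold change 0.49). DDX1, a helicase of the same ligase complex, lay at 104, 106 and 96.0 CPM against 97.7, 103 and 98.1 CPM (0.04). Of the 24 tested genes of tRNA splicing 9 lay above 0 (median -0.09), and 13 without control replicate 1 (median 0.01). SSH2, a phosphatase that activates the actin-severing protein cofilin, stood at 35.6, 40.4 and 36.3 CPM with NnK-1 against 23.7, 27.5 and 24.4 CPM in controls (0.57), with every NnK-1 library above every control.

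For AAGAB, a chaperone of clathrin adaptor assembly, 1 library carried much of the difference. The NnK-1 libraries gave 196, 300 and 214 CPM and the controls 150, 150 and 167 CPM, so the second NnK-1 library stood far above its fellows. The log2 fold change of 0.60 was 0.40 without that library. The same library was the highest for EI24, an endoplasmic reticulum protein of autophagy (423, 519 and 437 against 329, 374 and 351 CPM, 0.39), and for COLGALT1, which glycosylates collagen (500, 623 and 490 against 344, 391 and 451 CPM, 0.44). RUVBL2, an ATPase of chromatin remodelling and snoRNP assembly, stood at 48.8, 57.1 and 49.3 against 39.5, 38.1 and 33.2 CPM (0.49). The other members of this group of 12 were SNHG19, GCOM1, HGH1 and C11orf98, with log2 fold changes of 0.58, 0.49, 0.71 and 0.45. Among higher genes that averaged 5 CPM or more, without overlap and at unadjusted p under 0.05, the widest folds after CRY1 were those of C9orf135 (0.86), FASTKD3 (0.86), a mitochondrial RNA-binding protein, and ZNF623 (0.83), a zinc finger gene. GCOM1 is a readthrough of neighbouring genes, and the sources used here do not say how its reads were divided.

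**Figure D2:**
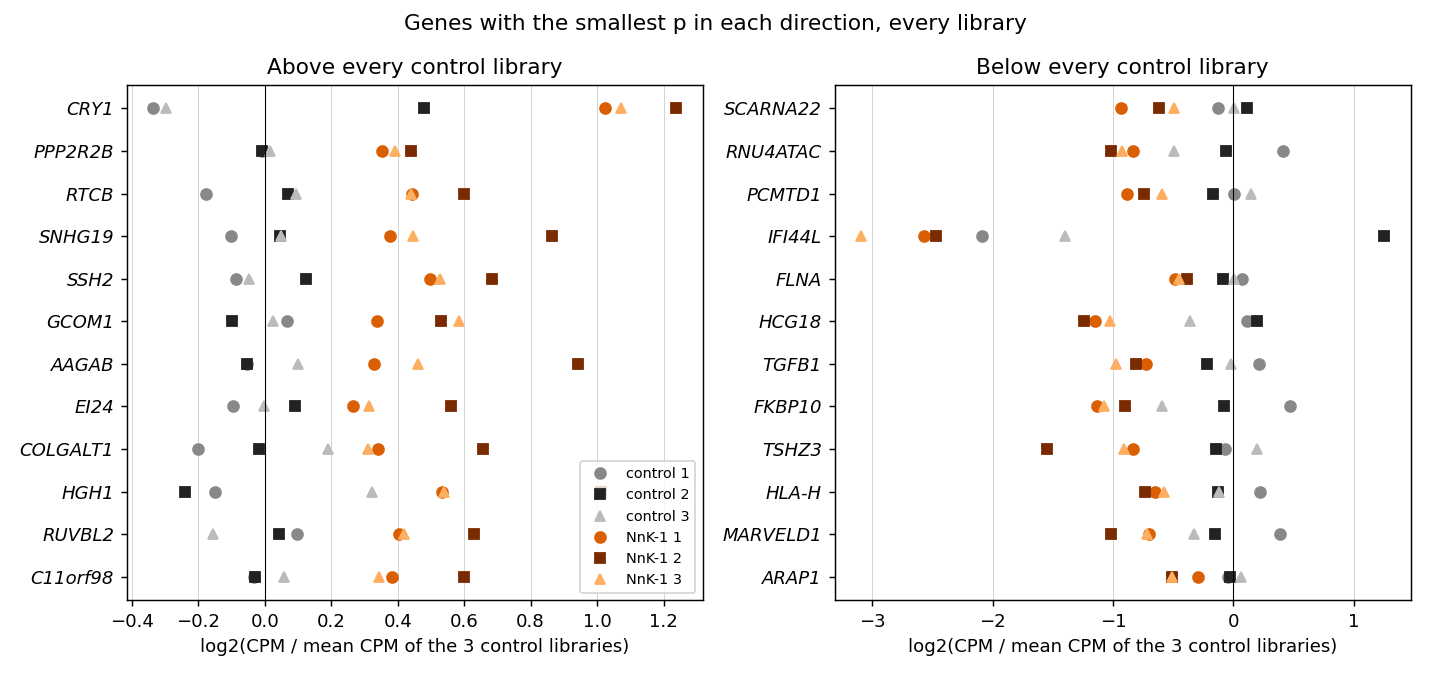
Log2 of the CPM in each of the 6 libraries over the mean CPM of the 3 control libraries, for the 12 genes of smallest p on either side among genes at 5 CPM or more without overlap between groups. The genes were chosen for that separation, CRY1 and IFI44L have the widest spread, and the 3 libraries of NnK-1 lie close together for PPP2R2B and FLNA.

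On the lower side, FLNA was the most abundant of the 12 genes with the smallest p. It encodes filamin A, which crosslinks actin filaments and ties them to membrane receptors. It stood at 642, 687 and 658 CPM with NnK-1 and 946, 846 and 901 CPM in controls, a log2 fold change of -0.44 (interval -0.65 to -0.23). The groups lay far apart relative to their spread, and leaving out any 1 library kept the value between -0.48 and -0.40. PCMTD1, a homologue of protein-repair methyltransferases, stood at 17.7, 19.6 and 21.8 CPM against 33.0, 29.1 and 36.3 CPM (-0.74), and it passed both DESeq2 (adjusted p = 0.0336) and edgeR's exact test (adjusted p = 0.0291).

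TGFB1, the ligand TGF-beta 1, stood at 12.2, 11.5 and 10.3 CPM with NnK-1 and at 23.4, 17.3 and 19.9 CPM in controls. The log2 fold change was -0.83 (interval -1.25 to -0.41), and -0.93 without control replicate 2 and -0.84 without NnK-1 replicate 2. FKBP10, a collagen chaperone of the endoplasmic reticulum, stood at 12.4, 14.5 and 12.9 CPM against 37.8, 25.7 and 18.1 CPM (-1.03), where the 3 controls were themselves far apart and the value without control replicate 1 was -0.72. TSHZ3, a homeobox and zinc finger factor, stood at 6.47, 3.96 and 6.15 CPM against 11, 10.4 and 13.3 CPM (-1.06). Among the others of the 12, MARVELD1, HLA-H and ARAP1 had log2 fold changes of -0.80, -0.65 and -0.43. SFI1, a centrosomal protein gene outside the 12 and chosen for its fold, stood at 5.99, 2.49 and 4.99 CPM against 8.66, 13 and 9.11 CPM (-1.18). HCG18 lay at -1.13, and it neighbours other transcripts of the MHC region whose share of its reads is uncertain, as is that of HLA class I genes in HLA-H, a near copy of them.

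The small RNAs of this comparison are shown by sequence, because 2 of the 3 lower genes with the smallest p were of this kind. SCARNA22 and SCARNA16 are small Cajal body RNAs of the H/ACA class, which guide the conversion of uridine to pseudouridine in spliceosomal RNAs. RNU4ATAC is the U4atac RNA of the minor spliceosome, the machine that removes a rare class of introns. The sequences are those of GENCODE release 29 on GRCh38, 5′ to 3′ as DNA letters, while the authors counted on hg19. Capitals mark the ACA box that lies 3 bases before the end of the H/ACA RNAs, and RNU4ATAC has no capitals.
SCARNA22: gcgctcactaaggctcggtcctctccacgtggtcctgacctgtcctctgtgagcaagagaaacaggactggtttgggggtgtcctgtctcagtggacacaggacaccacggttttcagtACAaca
SCARNA16: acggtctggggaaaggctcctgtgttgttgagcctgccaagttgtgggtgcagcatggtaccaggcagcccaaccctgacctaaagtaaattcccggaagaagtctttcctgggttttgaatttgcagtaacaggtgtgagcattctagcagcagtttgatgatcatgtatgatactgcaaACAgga
RNU4ATAC: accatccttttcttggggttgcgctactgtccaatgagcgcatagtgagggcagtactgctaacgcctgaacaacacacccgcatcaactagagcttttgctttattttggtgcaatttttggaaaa
SCARNA22 (chr4:1974636-1974760, plus strand, 125 bases) lies in an intron of NSD2, SCARNA16 (chr17:77089307-77089493, plus strand, 187 bases) in an intron of SEC14L1, both on the strand of the host gene, and RNU4ATAC (chr2:121530881-121531007, plus strand, 127 bases) in an intron of CLASP1 on the other strand. The longest run of A in them is 3, 3 and 4 bases. Reads of the small RNA and of its host's unspliced transcript cannot be told apart in these counts. The sources used here give no strand setting for the counting. The libraries were QuantSeq, which reads the 3′ ends of polyadenylated RNA. How far the counts measure the mature form of these small RNAs, and of those in the groups below, was not tested.

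SCARNA22 had the smallest p of all genes (4.67e-05). It stood at 62.5, 77.8 and 84.9 CPM with NnK-1 and 109, 129 and 120 CPM in controls, a log2 fold change of -0.67 (interval -0.94 to -0.40), and it was -0.61 without control replicate 2 and -0.69 without NnK-1 replicate 2. It passed DESeq2 (adjusted p = 0.0137) and edgeR's exact test (adjusted p = 0.0148). RNU4ATAC stood at 90.9, 80.3 and 85.3 CPM against 216, 155 and 115 CPM, with close NnK-1 libraries and widely spread controls, and its log2 fold change of -0.92 was -0.66 without control replicate 1. It passed edgeR's exact test (adjusted p = 0.0148) but not DESeq2 (adjusted p = 0.300). SCARNA16 was scarce, at 16, 19 and 24 counts against 42, 80 and 57, and its log2 fold change was -1.47 (interval -2.49 to -0.44).

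As a group, 11 of the 12 tested small Cajal body RNAs, with the telomerase RNA TERC counted among them for its H/ACA domain, lay below 0. Over all tested genes 50.6% lay above 0. The median log2 fold change of these RNAs was -0.62, against 0.00 for all tested genes. At p under 0.05, 5 were lower and 0 higher, against 3.56% and 3.76% of all tested genes. Without control replicate 2, NnK-1 replicate 2 or both the median was -0.43, -0.54 and -0.38, and the members at p under 0.05 numbered 1, 3 and 1. Their summed level was 105, 117 and 143 CPM in the NnK-1 libraries and 173, 212 and 185 CPM in the controls. The groups did not overlap, and SCARNA22 made up most of the sum. NnK-1 replicate 3 was the NnK-1 library nearest to the controls. This list was chosen with earlier results of these data known and holds SCARNA22 itself, so its values are not separate support for that gene.

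TERC stood at 14.7, 12.6 and 18.4 CPM with NnK-1 and 17.4, 24.6 and 26.1 CPM in controls, so the third NnK-1 library lay within the range of the controls (-0.58). SCARNA18 and SCARNA9 also overlapped, at -0.98 and -0.50, and SCARNA18 was -0.39 without control replicate 2. The nucleolar relatives were collected by symbol after these values had been seen. Of 22 tested SNORA genes, the H/ACA RNAs that guide pseudouridine in ribosomal RNA, 17 lay below 0 with a median of -0.38 and a sum of 72.7, 75.1 and 72.0 CPM against 81.5, 109 and 88.7 CPM. Of 8 tested SNORD genes, the C/D RNAs that guide methylation, 6 lay below 0 with a median of -0.24 and sums that overlapped. Of 19 tested SNHG genes, hosts that carry many such RNAs in their introns, 14 lay above 0. The median was 0.16, and 0.09 without NnK-1 replicate 2 or without control replicate 1. Their sum was 2027, 2332 and 2231 CPM against 1911, 1991 and 1929 CPM. Not all such genes stood higher: SNHG25 passed as lower by the quasi-likelihood test without the filter on low counts (adjusted p = 0.00027). That fit also passed genes whose controls lay far apart. NSD2 and SEC14L1, the hosts of SCARNA22 and SCARNA16, are not reported here. SNHG6, whose introns hold a C/D RNA, stood at 558, 522 and 577 CPM against 471, 486 and 470 CPM (0.21), and SNHG19, which overlaps SNORD60, at 126, 177 and 132 CPM against 90.4, 100 and 100 CPM.

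**Figure D3:**
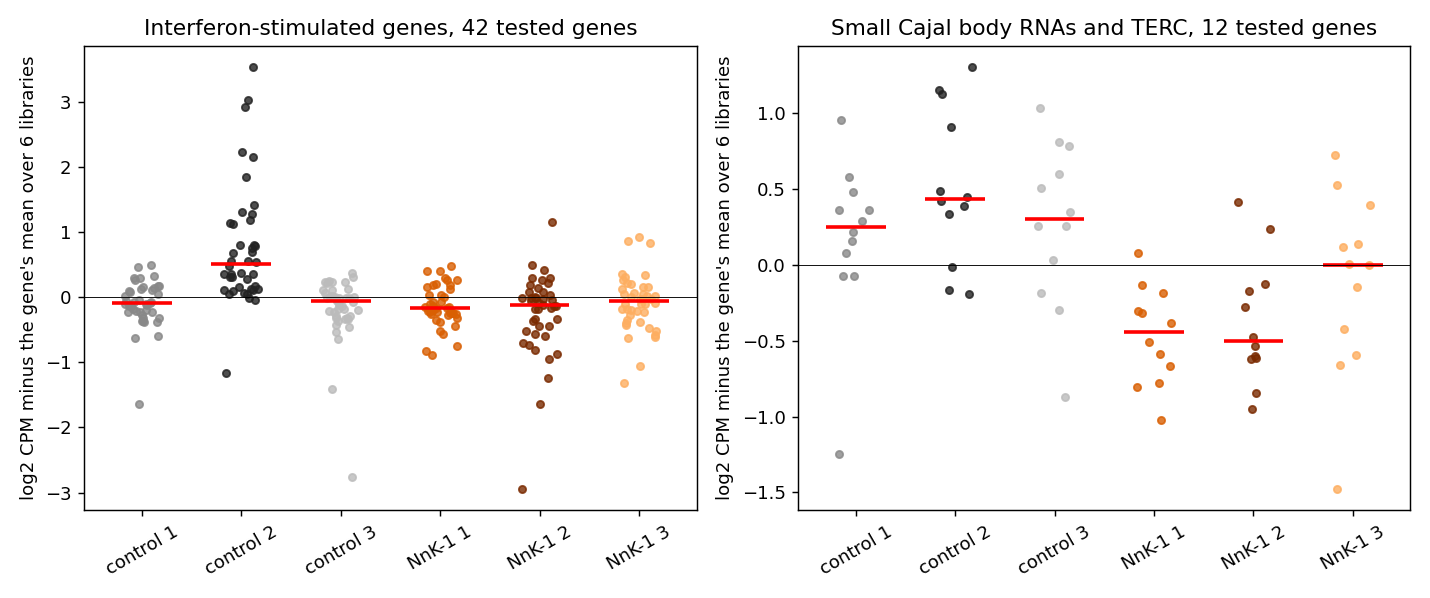
For each library, log2 CPM of each tested gene minus that gene's mean over the 6 libraries, for 42 interferon-stimulated genes and for 12 small Cajal body RNAs with TERC, with red bars at the median of the library. The interferon genes are high in control replicate 2 alone (median 0.51), while the Cajal body RNAs are above 0 in all 3 control libraries (medians 0.25, 0.43 and 0.30), below 0 in NnK-1 replicates 1 and 2 (-0.44 and -0.50) and near 0 in NnK-1 replicate 3 (0.0015).

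Interferon-stimulated genes are switched on by a complex of transcription factors that binds the interferon-stimulated response element near their start sites. The letters GAAANNGAAA, a core of that element, were searched on both strands of RefSeq promoter windows (250 bases before to 50 after the start, GRCh38.p14). They were found in 25 of the 35 tested interferon-stimulated genes that matched the table (71.4%) and in 1255 of all 35116 windows (3.57%). The first share is per gene, with a match in any of its windows, and the second per window, so the units are unlike. A match describes the letters and not the binding of a factor. The promoters of IFI44L, BST2 and MX1 are shown because these genes carry the layout described below, with the matching letters in capitals. The matches in BST2 overlap each other.
IFI44L: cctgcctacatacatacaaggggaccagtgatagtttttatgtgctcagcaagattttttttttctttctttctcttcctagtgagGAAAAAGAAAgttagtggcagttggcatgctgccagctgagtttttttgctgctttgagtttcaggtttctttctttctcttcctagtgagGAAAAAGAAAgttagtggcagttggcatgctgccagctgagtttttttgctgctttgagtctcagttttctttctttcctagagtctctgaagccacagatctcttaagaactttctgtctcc
BST2: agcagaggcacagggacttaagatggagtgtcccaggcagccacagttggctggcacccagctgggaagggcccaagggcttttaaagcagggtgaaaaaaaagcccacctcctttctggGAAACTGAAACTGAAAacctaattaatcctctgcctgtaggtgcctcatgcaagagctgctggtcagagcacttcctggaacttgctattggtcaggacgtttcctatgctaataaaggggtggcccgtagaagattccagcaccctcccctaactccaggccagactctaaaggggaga
MX1: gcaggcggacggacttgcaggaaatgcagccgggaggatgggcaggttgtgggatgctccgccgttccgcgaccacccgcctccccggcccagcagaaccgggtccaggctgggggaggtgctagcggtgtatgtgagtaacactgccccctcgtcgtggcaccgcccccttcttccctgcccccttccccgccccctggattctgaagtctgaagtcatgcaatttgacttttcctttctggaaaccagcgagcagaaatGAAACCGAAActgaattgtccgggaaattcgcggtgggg
The windows lie at chr1:78620198-78620497 on the plus strand, chr19:17405581-17405880 on the minus strand and chr21:41420308-41420607 on the plus strand. For MX1 the window is 1 of 3 in the table.

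IFI44L, an interferon-induced gene of antiviral defence, stood at 2.76, 2.95 and 1.91 CPM with NnK-1 and at 3.85, 39.0 and 6.22 CPM in controls. Control replicate 2 stood far above the other libraries, the groups did not overlap, and the log2 fold change of -2.68 was -0.99 without that library. BST2, which tethers budding virus to the cell surface, followed the same layout with 1.97, 2.76 and 1.75 CPM against 3.45, 17.5 and 4.96 CPM (-2.00, and -0.96 without control replicate 2). MX1, an antiviral GTPase, gave 9.07, 5.62 and 7.15 CPM against 6.57, 47.6 and 8.66 CPM. Its groups overlapped, and without control replicate 2 its log2 fold change was -0.06 in place of -1.52. For ISG15, a ubiquitin-like modifier, the corresponding values were 0.29 and -0.61, a change of direction.

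SAMD9, an antiviral factor and growth suppressor, depended less on that library. It stood at 27.8, 23.6 and 20.7 CPM with NnK-1 and at 30.8, 48.0 and 35.2 CPM in controls, a log2 fold change of -0.66, and of -0.46 without control replicate 2. PARP12, an interferon-induced ADP-ribosyltransferase, stood at 6.94, 11.9 and 10.4 CPM against 14.8, 16.6 and 13.0 CPM (-0.61, and -0.51 without that library). Over the list, 32 of 42 tested genes lay below 0 and the median was -0.22. At p under 0.05, 11 were lower and 0 higher, against 3.56% and 3.76% of all tested genes. Without control replicate 2 the count below 0 was 23, the median -0.05 and the lower genes 2. Without that library and NnK-1 replicate 2 the members were split evenly, 21 on each side, with a median of 0.01. The median over the 42 genes of the deviation from each gene's own mean was 0.51 in control replicate 2 and lay between -0.17 and -0.06 in the other 5 libraries.

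The neighbouring immune lists showed no such layout. Of 21 tested MHC class I genes 12 lay above 0 (median 0.02), and of 24 genes of NF-kB and inflammatory cytokines 15 did (median 0.06). Within the latter the precursor subunits went opposite ways. NFKB2 stood at 14.7, 11.6 and 10.3 CPM with NnK-1 against 17.4, 19.3 and 20.2 CPM (-0.63), and NFKB1 at 32.6, 43.5 and 31.4 CPM against 23.9, 30.9 and 28.4 CPM (0.37). Neither overlapped between groups, though the lowest NFKB1 library with NnK-1 and the highest control were close.

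Genes of cholesterol synthesis and of its regulator SREBP2 lay above 0 for 22 of 28 tested members, with a median log2 fold change of 0.11. At p under 0.05, 3 were higher and 0 lower, against 3.76% and 3.56% of all tested genes. The median stayed between 0.10 and 0.15 when any 1 library was left out. Their summed level lay between 3575 and 4130 CPM with NnK-1 and between 3054 and 3441 CPM in controls. DHCR7, the reductase of 7-dehydrocholesterol, stood at 123, 134.9 and 105 CPM against 89.2, 95.8 and 97.4 CPM (0.36), and the sterol carrier STARD4 at 9.46, 5.62 and 8.40 CPM against 4.33, 5.26 and 4.22 CPM (0.77).

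In fatty acid synthesis 12 of 20 tested genes lay above 0 (median 0.06, and -0.0030 without NnK-1 replicate 3), and 4 had all NnK-1 libraries above all controls. Over all tested genes 6.07% lay above every control in this way. The desaturase SCD, which makes oleate, stood at 749, 897 and 864 CPM against 709, 739 and 736 CPM (0.20). ACSL4, which activates polyunsaturated fatty acids, stood at 128, 132 and 130 CPM against 111, 100 and 117 CPM (0.25). Both differences were of the order of 1.2-fold or less.

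Genes of energy metabolism lay above 0 more often than below it. Of 39 genes of glycolysis and hypoxia 28 lay above 0 (median 0.10). At p under 0.05, 6 were higher and 1 lower, against 3.76% and 3.56% of all tested genes. The higher genes numbered 1 without NnK-1 replicate 2, 1 without control replicate 1 and 2 without control replicate 2. KDM3A, a hypoxia-induced histone demethylase, stood at 87.4, 84.9 and 85.2 CPM against 63.7, 66.5 and 72.0 CPM (0.35). The 1 lower gene was GAPDH, the glyceraldehyde phosphate dehydrogenase often used as a reference, at 2377, 2461 and 2284 CPM against 2885, 2590 and 2672 CPM (-0.19). Of 76 nuclear genes of the respiratory chain 51 lay above 0 (median 0.07, and 0.02 without control replicate 2 and NnK-1 replicate 2), and the intervals of all 76 lay within 2-fold, against 95.2% of all tested genes at 5 CPM or more. ATP5L, a subunit of the ATP synthase, stood at 1006, 1241 and 1152 CPM against 951, 885 and 961 CPM (0.28). GLUL, the glutamine synthetase of astrocytes, stood at 154, 146 and 139 CPM against 119, 120 and 112 CPM (0.32), without overlap and between 0.29 and 0.36 with any 1 library left out.

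For genes of the cell cycle the width of the intervals was near that of all genes at 5 CPM or more, of which 95.2% lay within 2-fold. The intervals of all 55 tested genes of G2 and mitosis, and of 47 of the 48 genes of G1 and S phase, lay within 2-fold. Of these lists 35 and 31 genes lay above 0, with medians of 0.04 and 0.06. At p under 0.05, 3 and 2 were higher with 1 lower in each, against 3.76% higher and 3.56% lower of all tested genes. Without NnK-1 replicate 1 the median of the G2 and mitosis list was -0.03, and without control replicate 2 that of G1 and S phase was 0.0034. CDK6, the kinase that carries cells through G1, was the 1 lower gene of its list, at 190, 164 and 162 CPM with NnK-1 against 222, 213 and 197 CPM (-0.29). CKS1B, a cofactor of cyclin-dependent kinases, stood at 125, 141 and 130 CPM against 108, 106 and 117 CPM (0.26), and MCM5, of the replicative helicase, at 69.7, 82.0 and 64.5 CPM against 58.6, 60.3 and 59.6 CPM (0.28). CDC25B, a phosphatase that opens mitosis, stood at 153, 168 and 164 CPM against 132, 138 and 143 CPM (0.23).

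Regulators of cell death lay near the background. Of 39 tested p53 targets and apoptosis genes 19 lay above 0 (median -0.01), against 50.6% of all tested genes. At p under 0.05, 1 was higher and 2 lower, against 3.76% and 3.56% of all tested genes. DIABLO, which relieves the inhibition of caspases, stood at 53.2, 62.5 and 58 CPM against 44.7, 45.2 and 46.9 CPM (0.34). XIAP, a caspase inhibitor, stood at 91.1, 75.8 and 80.6 CPM against 98.5, 103 and 94.6 CPM (-0.26). BAK1, which permeabilises the outer mitochondrial membrane, stood at 8.04, 7.27 and 8.57 CPM against 9.38, 14.1 and 14.9 CPM (-0.68). None of these groups overlapped, though the lowest control lay close to the NnK-1 libraries for XIAP and BAK1.

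Among stress responses, chaperones of the endoplasmic reticulum had 5 genes lower and 0 higher at p under 0.05 of 26 tested, with 9 above 0 and a median of -0.04. The lower genes numbered 1 without control replicate 1 and 2 without control replicate 3. Over all tested genes 3.56% were lower and 3.76% higher at that threshold. SDF2L1, a co-chaperone of BiP, stood at 34.5, 29.1 and 28.9 CPM against 56.9, 39.3 and 38.9 CPM (-0.55, and -0.34 without control replicate 1). HYOU1, an exchange factor of the same chaperone, stood at 104, 107 and 117 CPM against 137, 133 and 131 CPM (-0.29). PDIA3, a disulphide isomerase, overlapped between groups, at 105, 108 and 120 CPM against 175, 147 and 113 CPM (-0.38). Of 31 genes of the ATF4 response 19 lay above 0 (median 0.03, 2 higher and 2 lower at p under 0.05), as did 18 of 28 heat shock genes (0.04, 3 and 2) and 27 of 40 NRF2 and antioxidant genes (0.03, 2 and 1). Within the heat shock list the Hsp70 and Hsp90 adaptor STIP1 stood at 135.02, 95.2 and 111 CPM against 175, 145 and 151 CPM (-0.47), and DNAJA1, an Hsp70 co-chaperone, at 116, 117 and 121 CPM against 100, 94.4 and 104 CPM (0.25).

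In the machinery of protein synthesis and breakdown, the intervals of all 79 ribosomal protein genes, 42 translation factors, 34 proteasome genes and 37 splicing factors of the SR and hnRNP families lay within 2-fold, against 95.2% of all tested genes at 5 CPM or more. The medians were 0.01, 0.03, 0.00 and -0.02. At p under 0.05 there were 6 higher and 10 lower ribosomal genes, against 3.76% and 3.56% of all tested genes. Without control replicate 1 the ribosomal counts were 6 and 0. RPL28 stood at 734, 733 and 611 CPM with NnK-1 against 550, 554 and 557 CPM (0.32), where the 3 controls were nearly equal. RPS3 stood at 811, 640 and 636 CPM against 1307, 829 and 850 CPM (-0.52, and -0.27 without control replicate 1). Ribosomal proteins have many processed pseudogenes, so reads of these genes may be divided among copies. PSMD3, of the proteasome's regulatory particle, stood at 214, 182 and 198 CPM against 350, 266 and 235 CPM (-0.52, and -0.34 without control replicate 1), while PSMD11 of the same particle stood at 705, 670 and 695 CPM against 629, 566 and 570 CPM (0.23).

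These list values rest on few libraries. Of the 44 lists with at least 5 tested members, the median changed sign in 19 when some single library was left out, and the number of members at p under 0.05 moved by more than 1.5 times in 40. Summed levels, which the most abundant members set, did not overlap between the groups for 12 of 47 lists, 8 higher and 4 lower. The 8 were the cholesterol, SNHG and clock lists given above, fatty acid synthesis (3897 to 4098 CPM with NnK-1 against 3637 to 3835 CPM), translation factors (13671 to 13880 against 13146 to 13495 CPM), receptor tyrosine kinases with PI3K (3747 to 3861 against 3550 to 3659 CPM), calcium entry (3452 to 3653 against 3319 to 3440 CPM) and actin with focal adhesion (47669 to 49571 against 45074 to 46947 CPM). The 4 were the small Cajal body RNAs, the SNORA genes, the spliceosomal small nuclear RNAs (91.0 to 104 against 124 to 228 CPM) and the 2 microglial markers. The spliceosomal list had 3 tested members, 1 of them above 0, and RNU4ATAC made up most of its sum.

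In the TGF-beta list the ligands differed in direction. TGFB2, the isoform known for its immunosuppressive role in glioblastoma, stood at 166.5, 186 and 197 CPM with NnK-1 against 148, 156 and 151 CPM (0.27), opposite to TGFB1 above. Of 33 tested genes 13 lay above 0 (median -0.05). At p under 0.05, 4 were higher and 2 lower, against 3.76% and 3.56% of all tested genes. Without NnK-1 replicate 2 the counts of this list were 3 and 4 (median -0.0046). ID3, an inhibitor of differentiation induced by BMP signalling, stood at 679, 713 and 691 CPM against 575, 607 and 577 CPM (0.24), a narrow and complete separation. Receptor tyrosine kinases and the PI3K pathway had 20 of 41 genes above 0 (median -0.01), and EGFR stood at 43.1, 53.4 and 67.2 CPM against 39.4, 44.0 and 43.5 CPM, with overlap (0.37). YAP and TEAD genes had 15 of 28 above 0 (median 0.02).

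The cytoskeleton and the matrix were mixed. Of 60 tested genes of actin and focal adhesion 29 lay above 0 (median -0.01), 5 higher and 6 lower at p under 0.05, FLNA among the latter. The shares over all tested genes, for this list and those below, were 3.76% higher and 3.56% lower. ACTG1, the cytoplasmic gamma actin, stood at 14497, 15905 and 13548 CPM with NnK-1 against 12188, 12143 and 12260 CPM in controls, which were nearly equal (0.26). COTL1, an actin-binding protein of the cofilin fold, stood at 400, 436 and 368 CPM against 320, 309 and 319 CPM (0.34). Of 41 collagen, laminin and matrix genes 11 lay above 0, with a median of -0.10, and 0 were higher and 4 lower at p under 0.05. The median was -0.06 without NnK-1 replicate 2 and -0.04 without NnK-1 replicate 1. COL6A2, a chain of collagen VI, stood at 106, 113 and 114 CPM against 137, 157 and 153 CPM (-0.42), and AGRN, the basement membrane proteoglycan agrin, at 14, 15.7 and 15.1 CPM against 28.2, 23.0 and 19.0 CPM (-0.65). Of 29 MMP, ADAM and TIMP genes 15 lay above 0 (median 0.01), and ADAM15, a membrane protease, stood at 38.1, 24.3 and 35.3 CPM against 69.5, 51.3 and 42.4 CPM (-0.74).

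Markers of the glial and progenitor state had 0 genes higher and 3 lower at p under 0.05 of 17 tested. Over all tested genes the shares were 3.76% and 3.56%. Without NnK-1 replicate 2 the counts of this list were 1 and 1, with a median of 0.0085. Its lower genes numbered 1 without control replicate 1, control replicate 3 or NnK-1 replicate 3, and 4 without NnK-1 replicate 1. SOX2, the transcription factor of neural stem cells, stood at 394, 402 and 410 CPM with NnK-1 against 478, 436 and 460 CPM (-0.19), and MSI1, an RNA-binding protein of progenitors, at 8.91, 6.35 and 5.32 CPM against 12.3, 10.1 and 11.5 CPM (-0.71). PTPRZ1, a receptor phosphatase of glia, stood at 102, 85.4 and 92.5 CPM against 135.5, 130 and 101 CPM (-0.39), with 1 control inside the range of the treated cells.

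The channels themselves were scarce. KCNA3, which encodes Kv1.3, had 1 read, from NnK-1 replicate 2, among all 9 libraries. The 0 counts of the 3 controls together allow a level of up to 0.0775 CPM, for counting error only. Of 40 listed voltage-gated potassium channel genes 19 had a read in the series and 5 were tested. KCNS3, a silent subunit that modifies Kv2 channels, was the 1 tested member above 5 CPM, at 21.7, 30.5 and 27.0 CPM with NnK-1 and 27.4, 21.3 and 25.2 CPM in controls. Its log2 fold change was 0.10 (interval -0.26 to 0.45), and -0.01 without NnK-1 replicate 2, so its direction turned. KCNQ5, an M-current channel, stood at 3.00, 0.921 and 5.07 CPM against 0.481, 1.65 and 1.48 CPM (1.31, interval -0.04 to 2.66), with overlap. KCNC4, a fast Kv3 channel, had 13, 16 and 12 counts against 5, 7 and 10 (1.03, interval -0.45 to 2.51). The interval of KCND1 spanned more than 2-fold on both sides of a value of -0.09, whose sign turned when single libraries were left out.

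Some channel genes below the filter on low counts were singled out after their counts had been seen, and they were not tested. KCNH2, which encodes the hERG channel, had 12, 17 and 3 counts with NnK-1 and 0 in each control library. With 3 counts taken as the limit of the control group, its 32 counts with NnK-1 stood 11.6-fold higher. That figure leaves out counting error and spread among the NnK-1 libraries, and most of the counts came from NnK-1 replicates 1 and 2. KCNG1, another silent subunit, had 6, 1 and 0 counts with NnK-1 and 8, 10 and 12 in controls. KCNH7, a relative of hERG, had 11, 0 and 1 counts against 0 in each control, so 1 library held nearly all of its reads.

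Of the other potassium channels 8 of 42 listed genes were tested and none was at p under 0.05. KCNMA1, the large-conductance calcium-activated channel and a potassium channel known from glioma cells, stood at 165, 196 and 185 CPM with NnK-1 and 168, 162 and 181 CPM in controls. Its log2 fold change was 0.10, with an interval of -0.12 to 0.31. Of 18 tested chloride and volume-regulated anion channel genes 10 lay above 0 (median 0.04), and CLIC1, an intracellular chloride channel protein, stood at 57.5, 35.4 and 45.9 CPM against 102, 54.6 and 64.8 CPM with overlap (-0.67, and -0.37 without control replicate 1). LRRC8A, the obligatory subunit of the volume-regulated anion channel, stood at 122, 143 and 138 CPM against 116, 118 and 123 CPM (0.17, interval -0.04 to 0.39).

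Downstream of the channels, 19 of 28 tested genes of calcium entry, calcineurin and NFAT lay above 0 (median 0.05, and 0.0098 without NnK-1 replicate 2), and 0 were higher and 1 lower at p under 0.05. That gene was TRPC1, a cation channel linked to store depletion, at 2.92, 4.70 and 4.24 CPM with NnK-1 against 5.13, 8.40 and 6.14 CPM (-0.73). PPP3R1, the regulatory subunit of calcineurin, stood at 89.7, 91.4 and 94.6 CPM against 104, 107 and 111 CPM (-0.23, interval -0.45 to 0.00). Of 25 immediate-early and AP-1 genes 16 lay above 0 (median 0.08) and 2 were higher at p under 0.05, while without NnK-1 replicate 1 only 12 lay above 0 (median -0.05). EGR1, an immediate-early transcription factor, stood at 14.4, 14 and 8.90 CPM against 8.58, 7.14 and 8.96 CPM (0.59), and ATF3, a stress-induced relative of AP-1, at 37.1, 38.1 and 57.1 CPM against 38.8, 26.9 and 31.7 CPM (0.44), both with overlap.

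At the lowest counts the fitted folds were wide and rested on few reads. LAMB2P1, a pseudogene of the laminin LAMB2 whose reads may be shared with its parent, had 5, 21 and 12 counts with NnK-1 against 1, 0 and 0. SLC16A1-AS1, an antisense transcript, had 19, 18 and 12 counts against 3, 0 and 1, and LINC01271, a long noncoding RNA, had 1, 0 and 1 counts against 8, 16 and 27. These genes did not pass the quasi-likelihood test (adjusted p = 0.499 each), and by edgeR's exact test their adjusted p was 0.0291, 0.0340 and 0.0344. In each of them all NnK-1 libraries lay on 1 side of all controls.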

How the data were processed

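Each deposited file holds 1 library's counts by gene symbol, raw reads that the authors had not normalized. Per the submitters' processing notes, reads were aligned with Bowtie2 to hg19 and bedtools was used; versions, annotation and counting options are not given in the sources used here. Per the labels' protocols, libraries were QuantSeq, which reads the 3′ ends of polyadenylated RNA. Of 25737 entries, the 286 symbols on several entries were summed. Genes were kept by filterByExpr (minimum count 10, minimum total 15), scaled by TMM and tested two-sided by quasi-likelihood in edgeR 4.0.16 (R 4.3.3) on all 9 libraries, with p adjusted by Benjamini-Hochberg and called under 0.05. The common biological coefficient of variation was 16.9%. DESeq2 1.42.0, edgeR's exact test and limma-voom (limma 3.58.1) were alternatives. The script was tested on simulated data. All pairs of libraries within the control group and within the NnK-1 group differed beyond sampling noise.

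Named genes were, at 5 CPM or more without overlap, the 12 higher and 12 lower genes of smallest p and the 4 of widest fold on each side (p under 0.05), genes passing another tool, up to 3 genes of smallest p per list, and the voltage-gated potassium channels. A part of them is given by counts alone, and some are not reported here. MX1, ISG15, PARP12, SCARNA9, SCARNA18, CRY2, DDX1, GAPDH, HYOU1, MALAT1, S100A6, ANXA2, ANXA2P3 and CD70, the markers used to check the line, and the SNORA and SNORD lists were chosen after their values were seen. The members and all 45 lists (1477 symbols) were chosen with earlier results of these data known. Intervals and limits from counts of 0 cover counting error or the spread of these libraries only.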

Additional observations from a re-analysis of the deposited data

How the results depend on the processing

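With 3 libraries a group, 0 genes higher and 0 lower passed in every setting that left out a library, changed the scaling factors or kept only the 6 libraries compared. Without the filter on low counts 27 higher and 47 lower passed, DESeq2 passed 1 and 2, and edgeR's exact test 3 and 5. Genes at unadjusted p under 0.05 numbered 1614 without NnK-1 replicate 1 and 595 without control replicate 2 and NnK-1 replicate 2, the extremes of the fits with libraries left out, against 1001, and at p under 0.01 there were 233. Genes without overlap numbered 2902 to 3962 with single libraries left out and 4408 without both, against 1759, as fewer libraries overlap less. Upper-quartile factors gave 416 genes higher and 578 lower at p under 0.05, where TMM gave 514 and 487. Control replicate 1 decided the size of RPS3, SDF2L1, PSMD3, CLIC1 and CD70. With 1 library or both doubted ones left out, the log2 fold change of KCNS3 ranged from -0.11 to 0.22, that of KCND1 from -1.47 to 0.67, that of MX1 from -1.94 to 0.090 and that of ISG15 from -0.95 to 0.29, and by limma-voom KCND1 was 0.66.

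The replicate number as a block gave 0 higher and 0 lower genes and 951 at p under 0.05 (KCND1 0.25). Deviations of same-numbered libraries correlated at 0.13, 0.026 and 0.014 across genes, which are not independent replicates. Pairs with unlike numbers lay between -0.093 and 0.066. Correlations of this kind cannot tell whether same-numbered libraries shared a culture or a batch, and the titles give a number only. Differences under about 1.3-fold lie inside the typical interval at this depth.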

Other observations

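Some genes in none of the lists were picked out after their values had been seen, because they are abundant in these cells or known in glioblastoma. None passed edgeR's quasi-likelihood test, with adjusted p from 0.499 to 0.609. Without the filter on low counts the same test passed CD70 (adjusted p = 5.79e-13) and MALAT1 (adjusted p = 7.50e-05). Both genes lie far above that filter. Their log2 fold changes in that fit were -0.91 and -0.42, as with the filter, so the p-values changed and the sizes did not. Which fit describes the spread of these genes better was not tested. MALAT1, a nuclear long noncoding RNA held in splicing speckles, stood at 7948, 7938 and 10893 CPM with NnK-1 and at 12773, 12594 and 10446 CPM in controls. The third NnK-1 library lay above the lowest control, and the log2 fold change was -0.42 (interval -0.68 to -0.16). CD70, a ligand of the TNF family found on glioblastoma cells, stood at 169, 112 and 117 CPM against 371, 203 and 176 CPM. The first control library was far above the others, and the log2 fold change of -0.91 was -0.51 without it.

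The calcium-binding proteins S100A6 and ANXA2 stood on the other side. S100A6 lay at 8013, 8582 and 8414 CPM with NnK-1 against 7294, 6757 and 6880 CPM, a log2 fold change of 0.26 without overlap. ANXA2, annexin A2 of the membrane and its cytoskeleton, lay at 3619, 4947 and 4294 CPM against 3438, 3568 and 3570 CPM (0.28, and 0.17 without NnK-1 replicate 2). Its lowest NnK-1 library was close to the controls, and ANXA2 has processed pseudogenes that may share its reads. ANXA2P3, 1 of them, passed as lower by the quasi-likelihood test without the filter on low counts (adjusted p = 1.03e-05). The other pseudogenes are not reported here.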
